A study of Homo sapiens with 4 samples.

Results

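Ribosome footprints on the messages of 62 translation initiation, elongation and release factors were followed, of 20323 genes in the count tables. The genes were chosen by symbol. The symbols were those of initiation factors eIF1 to eIF6, elongation factors eEF1 and eEF2, the release factors ETF1, GSPT1 and GSPT2, the recycling factor ABCE1, and the poly(A)-binding proteins PABPC1 and PABPC4 with their like-named relatives. The eIF2 kinases, the cap-binding protein eIF4E and its partners, EEF1E1 and the EEF1A methyltransferases were left out. EIF6 had 2 rows in the tables, of which the one with the larger count was used. EIF1AD came in through its name, which refers to a domain like that of eIF1A.

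Footprints came from 5-fluorouracil-resistant HCT-8, an established line of human colorectal cancer origin. Cells had been transfected with a plasmid that overexpresses METTL14 (OE, 2 libraries) or with a negative control plasmid (NC, 2 libraries), and cycloheximide at 100 ug/mL was given to both groups. The submitters describe 2 independent experiments, and the labels give each group replicates 1 and 2. Promoter and dose of the plasmids and the number of resistant clones were not given in the sources used here.

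Protein synthesis begins when a small ribosomal subunit, loaded with initiator tRNA by eIF2 and held together by eIF3, is brought to the capped message by eIF4 factors and scans to a start codon. Elongation factors then deliver tRNAs and move the ribosome, release factors free the finished chain, and ABCE1 splits the ribosome for another round. Messages of many of these factors carry a run of pyrimidines at their capped end, the terminal oligopyrimidine (TOP) tract, through which mTOR signalling controls their translation. METTL14 is the RNA-binding partner in the methyltransferase that writes N6-methyladenosine on messages.

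A footprint count reflects both how much of a message is present and how densely ribosomes cover it, and no total RNA was analysed here. Estimated counts summed to between 7742274 (OE replicate 1) and 24392875 (OE replicate 2) per library. METTL14 itself had 448 and 91.2 CPM (counts per 1000000 counts of the library, with library totals scaled by TMM) in OE replicates 1 and 2, against 44.6 and 47.6 CPM in NC, a log2 fold change of 2.55 (SE 0.81) that did not pass edgeR's quasi-likelihood test (adjusted p = 0.734). All 7 colorectal epithelial markers checked were detected in each library, at up to 9650 raw CPM, and 10 markers of blood, endothelial, fibroblast and liver cells lay at 5.55 raw CPM or less, 2 of them at 0 in each library. Across 12560 tested genes the OE libraries had a Pearson correlation of 0.863 in log2 CPM and the NC libraries 0.983. OE replicate 1 had the smallest total count and a TMM factor of 1.36, against 0.907 in OE replicate 2 and 0.889 and 0.912 in NC. The correlation within OE does not show which of the 2 OE libraries lies apart, so their values are printed separately.

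Of the 62 factor genes, 55 passed the filter on low counts and 7 did not. Of these 7, EIF5AL1 had 7.76 estimated counts in NC replicate 1 and 0 elsewhere, and 6 had 0 counts in every library, among them EIF3CL, EIF2S3B, PABPC1L2A, PABPC1L2B and PABPC4L. A count of 0 allows up to 3 counts, or 0.286 and 0.136 CPM in OE replicates 1 and 2 and 0.154 and 0.176 CPM in NC replicates 1 and 2. EIF3CL, EIF2S3B and EIF5AL1 are near-identical copies of EIF3C, EIF2S3 and EIF5A, and the share of each copy in the reads could not be told apart by counting. Among the 55 tested genes, 17 had a fractional estimated count in at least 1 library, EIF3C, EIF5A, GSPT1, GSPT2, PABPC1 and PABPC1L among them.

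No translation factor passed the comparison of OE with NC, which addresses which messages gained or lost footprints when METTL14 was overexpressed. After Benjamini-Hochberg adjustment across the 12560 genes, edgeR's quasi-likelihood test called 0 of the 55 (smallest adjusted p = 0.734), beside 0% of all genes tested. At an unadjusted p below 0.05 there was 1 factor, GSPT2, and 691 of all genes. The DESeq2 Wald test called 25 genes (0.199%), of which 1 was a factor, PABPC1L. A fit with the replicate number as a block called 24 genes (0.191%), with 0 factors among them. The median log2 fold change was -0.12 over the 55 factors and 0.09 over all genes tested. With library totals as the only scaling these medians were 0.15 and 0.40, so the factors lay below the gene median under both scalings and had no fixed sign.

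The 2 OE libraries placed most translation factors on opposite sides of NC. Footprints lay below both NC libraries in OE replicate 1 and above both in OE replicate 2 for 32 of the 55 factors (58.2%), against 19.8% of all genes tested. The size of this split depended on scaling, and with library totals alone it held for 22 factors (40.0%), against 10.6% of all genes, a setting chosen after the values were seen. In that setting the median log2 difference of the factors in OE replicate 1 was 0.05, against 0.59 over all genes. The reverse, above NC in OE replicate 1 and below it in OE replicate 2, held for 6 factors, against 19.2% of all genes. Both OE libraries lay above both NC libraries for 5 factors (background 19.9%), and below both for 8 (background 20.4%). In OE replicate 1 the median log2 difference of the factors from the NC mean was -0.54, and in OE replicate 2 it was 0.30. Over all genes these medians were 0.02 and 0.00. Both OE libraries were set against the same NC libraries.

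**Figure D1:**
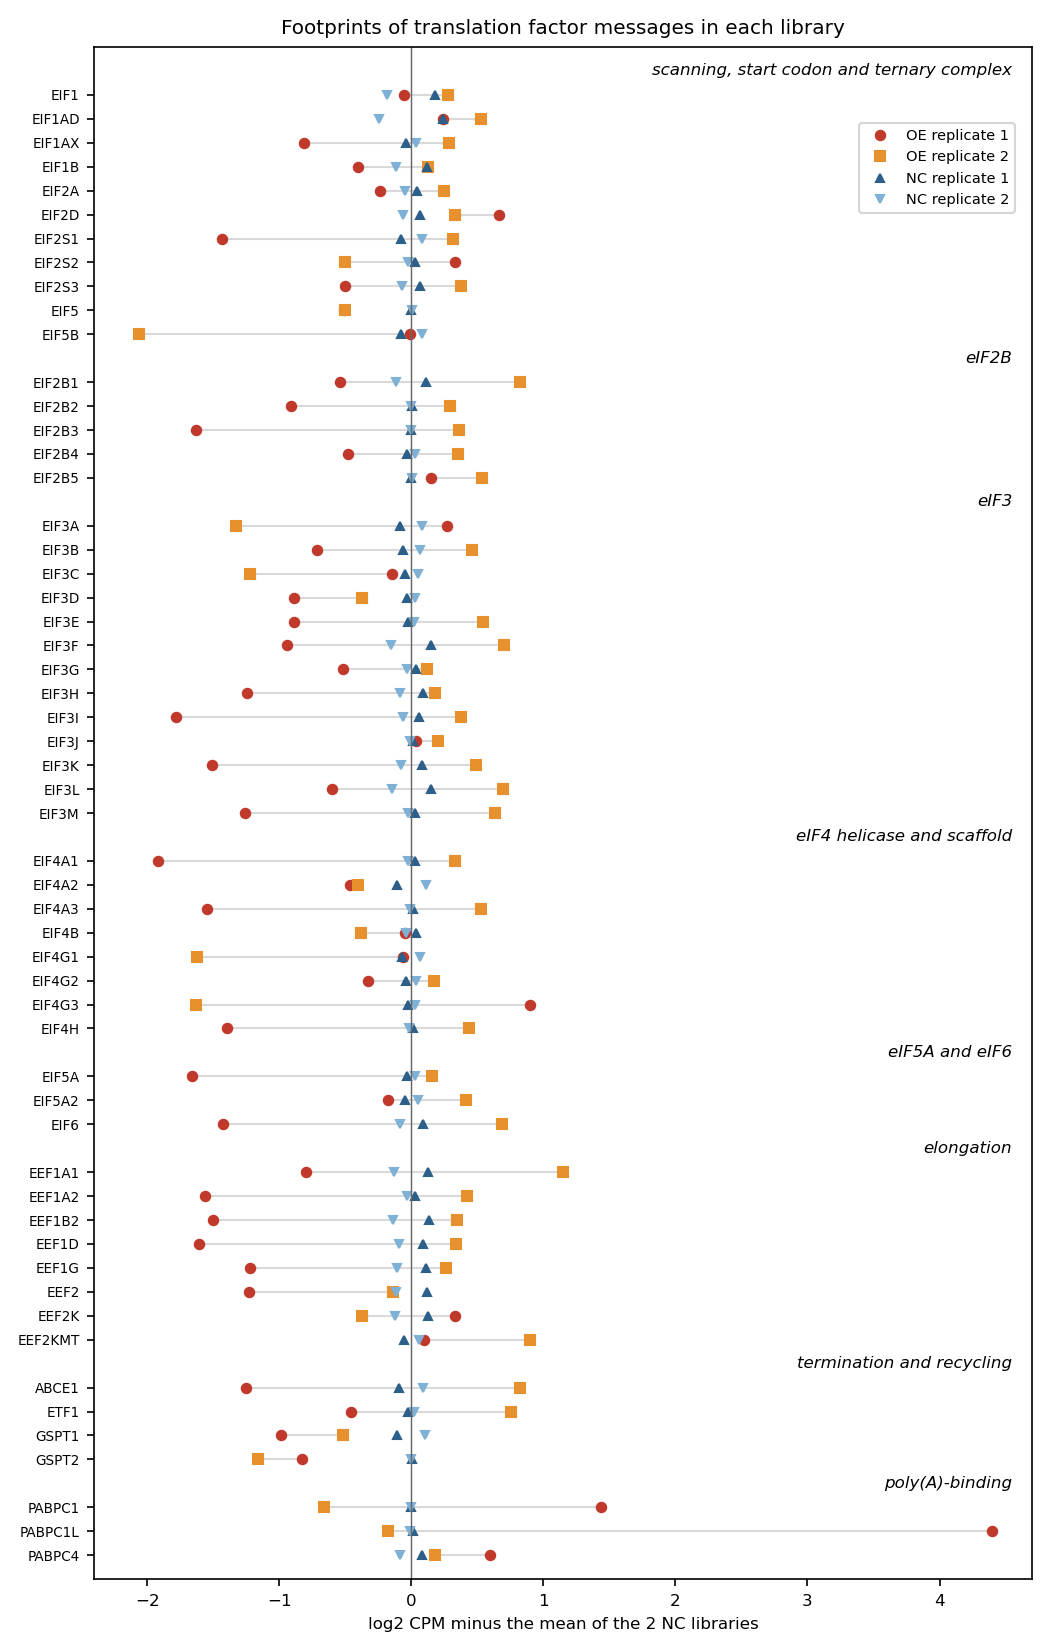
Each row is a translation factor and each point a library, as log2 CPM minus the mean of the 2 NC libraries, with grey lines joining the OE replicates. Most OE replicate 1 points lie left of 0 (median -0.54) and most OE replicate 2 points right of it (median 0.30), while the NC points stay close together; where OE points coincide, as for EIF5, only the square shows.

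**Figure D2:**
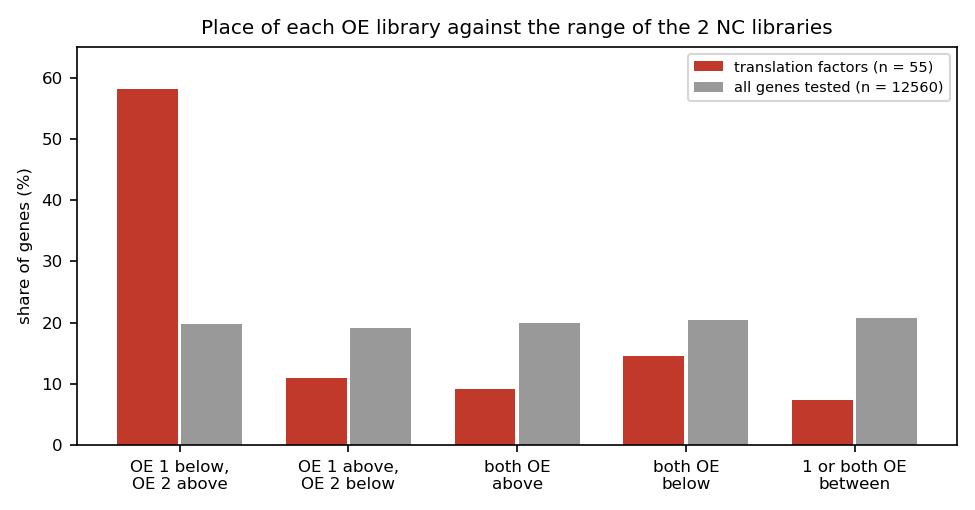
Bars give the share of the 55 translation factors and of all 12560 tested genes by where each OE library lay against the range of the 2 NC libraries. The class with OE replicate 1 below and OE replicate 2 above holds 58.2% of the factors and 19.8% of all genes.

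Footprint level went with the values of OE replicate 1 and not with those of OE replicate 2. Of the 55 factors, 35 were among the top 10% of genes by NC level. The factors in that class had median log2 differences of -0.81 (OE replicate 1) and 0.28 (OE replicate 2), and all genes in it -1.08 and -0.08. The part of level in the OE replicate 1 values was not tested. Between replicates the factors differed by a median of 1.21 on the log2 scale in OE and 0.11 in NC, against 0.83 and 0.17 over all genes. No factor differed by more than 0.48 between the NC libraries, while 33 of the 55 differed by more than 1 between the OE libraries.

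Fits that keep a single OE library rest on the spread of the NC libraries and assume that the lone library varies likewise. Without OE replicate 1, edgeR's quasi-likelihood test called 19 factors higher and 13 lower at an adjusted p below 0.05, beside 16.5% and 17.0% of all genes. Without OE replicate 2 it called 6 higher and 35 lower, beside 30.5% and 30.7% of all genes. These calls compare 1 library with the controls and carry no replicate check of OE.

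The 11 tested genes of scanning, start-codon choice and initiator tRNA delivery had a median log2 fold change of -0.03. Of them 1 lay above NC in both OE libraries, 1 below and 9 overlapped, or 9.09% each way, beside 19.9% and 20.4% of all genes. EIF5, the GTPase-activating partner of eIF2 that acts at the start codon, was the evenest of the lower genes. Its level was 189 and 190 CPM in OE and 269 and 270 CPM in NC, or 190 ± 0.929 against 269 ± 1.07 CPM (SD, n = 2 each). Both OE libraries lay below both NC libraries, with a log2 fold change of -0.51 (SE 0.37, edgeR quasi-likelihood adjusted p = 0.739), and the groups overlapped when library totals were the only scaling (-0.18).

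EIF5B, the GTPase that joins the large ribosomal subunit, had 157 and 37.98 CPM in OE, against 150 and 168 CPM in NC. OE replicate 1 lay within the NC range and OE replicate 2 far below it, at a log2 difference of -2.06 from the NC mean, the lowest of any factor in that library. EIF2D, which can deliver initiator tRNA without eIF2, had 50.8 and 40.4 CPM in OE and 33.5 and 30.7 CPM in NC. It was the gene of this group that lay above NC in both OE libraries, with a log2 fold change of 0.51 (SE 0.30, edgeR quasi-likelihood adjusted p = 0.734).

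The 3 subunits of eIF2 did not move together. EIF2S1, the alpha subunit that stress kinases phosphorylate, had 89.0 and 300.0 CPM in OE, against 228 and 254 CPM in NC. EIF2S2, the beta subunit, had 476 and 266 CPM in OE, against 385 and 371 CPM in NC. EIF2S3, the GTP-binding gamma subunit, had 227 and 418 CPM in OE, against 338 and 307 CPM in NC. In OE replicate 1 EIF2S1 and EIF2S3 were below NC and EIF2S2 above it, and in OE replicate 2 each was on the other side. Of the 3, EIF2S2 is named by the rule used for single genes, and EIF2S1 and EIF2S3 were added after their values were seen.

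EIF1, which keeps the scanning ribosome from settling at poor start codons, had 471 and 593 CPM in OE and 554 and 431 CPM in NC, so the groups overlapped. Its paralogue EIF1B had 37.1 and 53.7 CPM in OE and 53.3 and 45.3 CPM in NC. Neither differed beyond the spread between replicates, with log2 fold changes of 0.11 and -0.12. The other members of the group, EIF1AX, EIF1AD and EIF2A, had log2 fold changes between -0.16 and 0.38.

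The exchange factor eIF2B, whose 5 subunits recharge eIF2 with GTP, gave a median log2 fold change of 0.00. All 5 subunits lay above both NC libraries in OE replicate 2, and 4 of them lay below both in OE replicate 1. EIF2B5, the catalytic subunit, was above NC in both OE libraries, at 44.7 and 58.4 CPM against 40.2 and 40.4 CPM in NC (log2 fold change 0.36, SE 0.31, edgeR quasi-likelihood adjusted p = 0.763). EIF2B3 had 15.8 and 63.2 CPM in OE and 49.2 and 49.1 CPM in NC. EIF2B1 had 37.0 and 95.3 CPM in OE, against 58.2 and 49.8 CPM in NC, and EIF2B2 had 39.2 and 90.9 CPM in OE, against 74.2 and 73.8 CPM in NC. These 3 overlapped between the groups, with OE replicate 1 lowest and OE replicate 2 highest.

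Among the 13 tested subunits of eIF3, the scaffold that holds the initiation complex together, 1 lay above NC in both OE libraries, 2 below and 10 overlapped. These are 7.69% above and 15.4% below, beside 19.9% and 20.4% of all genes. EIF3D, a subunit that can itself bind the cap of some messages, had 153 and 220 CPM in OE and 278 and 290 CPM in NC, or 186 ± 46.8 against 284 ± 8.01 CPM (SD, n = 2 each). Its log2 fold change was -0.61 (SE 0.40, edgeR quasi-likelihood adjusted p = 0.734), and its OE libraries stayed below NC with library totals as the only scaling. The other lower subunit was EIF3C, part of the scaffold core, with 944 and 448 CPM in OE and 1011 and 1081 CPM in NC. Its groups overlapped when library totals were the only scaling (log2 fold change -0.16).

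EIF3A, the largest subunit and a core of the scaffold, had 715 and 236 CPM in OE, against 559 and 627 CPM in NC. It was above both NC libraries in the first OE library and below both in the other. EIF3L had the opposite split, with 139 and 340 CPM in OE and 233 and 189 CPM in NC. EIF3I, a propeller subunit, had 163 and 726 CPM in OE and 584 and 536 CPM in NC, and was singled out after its values were seen. EIF3J, a loosely held subunit, was the one above NC in both OE libraries, at 187 and 209 CPM against 183 and 181 CPM in NC, also singled out after its values were seen. The remaining 8 tested subunits, EIF3B, EIF3E, EIF3F, EIF3G, EIF3H, EIF3K and EIF3M with EIF3I, were all below NC in OE replicate 1 and above it in OE replicate 2.

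The make-up of the eIF3 footprints differed between the OE libraries. As a share of raw library counts the subunits together held 0.448% and 0.444% in OE, against 0.430% and 0.441% in NC. With TMM scaling their summed level was 3302 and 4896 CPM in OE, against 4842 and 4839 CPM in NC, so OE replicate 1 lay above NC on the first scale and below it on the other. Within the eIF3 total EIF3A made up 21.7% and 4.83% in OE, against 11.6% and 13.0% in NC. EIF3C made up 28.6% and 9.15% in OE, against 20.9% and 22.3% in NC. EIF3I ran the other way, at 4.93% and 14.8% in OE, against 12.1% and 11.1% in NC, as did EIF3M at 4.48% and 11.2% in OE, against 7.43% and 7.18% in NC. Shares within eIF3 do not depend on how libraries are scaled. As they are not corrected for message length, they were compared between libraries and not between subunits.

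**Figure D3:**
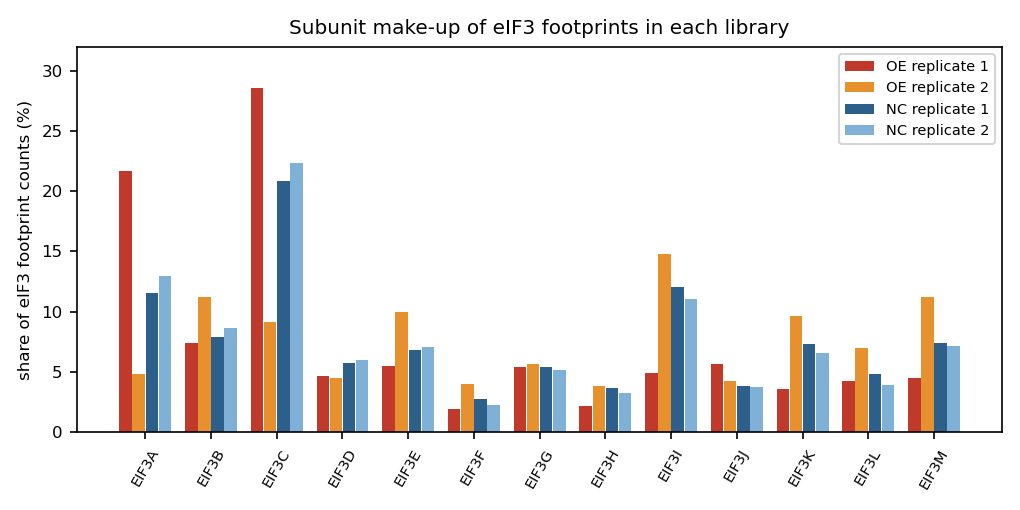
Bars give each tested subunit's share of all eIF3 footprint counts in each of the 4 libraries. EIF3A and EIF3C are highest in OE replicate 1 (21.7% and 28.6%) and lowest in OE replicate 2 (4.83% and 9.15%), with both NC libraries between.

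The eIF4 helicase and scaffold group had 8 tested genes, of which 0 lay above NC in both OE libraries, 2 below and 6 overlapped. As shares this is 0% above and 25.0% below, beside 19.9% and 20.4% of all genes. EIF4A2, a paralogue of the RNA helicase that unwinds leaders of messages, had 271 and 284 CPM in OE and 347 and 404 CPM in NC, or 277 ± 8.94 against 375 ± 40.6 CPM (SD, n = 2 each). The groups did not overlap, with a log2 fold change of -0.44 (SE 0.40, edgeR quasi-likelihood adjusted p = 0.777). They overlapped when library totals were the only scaling (-0.11). EIF4A1, the main helicase, had 734 and 3486 CPM in OE, against 2818 and 2717 CPM in NC.

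EIF4G1, the scaffold that ties the cap complex to eIF3, had 414 and 141 CPM in OE and 413 and 454 CPM in NC. EIF4G3, a related scaffold, had 170 and 29.3 CPM in OE and 89.3 and 92.5 CPM in NC. EIF4G2, which lacks the site for eIF4E and serves other modes of initiation, had 378 and 533 CPM in OE and 461 and 487 CPM in NC. In OE replicate 2 EIF4G1 and EIF4G3 were both about a log2 difference of -1.6 below the NC mean (-1.62 and -1.63), while EIF4G2 was above NC. Their log2 fold changes over all libraries were -0.65, 0.13 and -0.06, none past the test. EIF4B, which stimulates the helicase, was the other gene below NC in both OE libraries, with a log2 fold change of -0.20, and was named after its values were seen.

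EIF5A, which carries the amino acid hypusine and helps ribosomes through stretches of proline, had 503 and 1768 CPM in OE and 1553 and 1622 CPM in NC. EIF5A2, its paralogue, had 17.2 and 25.9 CPM in OE and 18.8 and 20.1 CPM in NC. EIF6, which keeps free large subunits from joining too soon, had 84.9 and 369 CPM in OE and 243 and 215 CPM in NC. Each of the 3 was below NC in OE replicate 1 and above it in OE replicate 2, and their log2 fold changes lay between -0.48 and 0.15.

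Of the 8 tested elongation genes, 5 lay below NC in OE replicate 1 and above it in OE replicate 2, under TMM scaling and with library totals alone. EEF1A1, which brings aminoacyl-tRNA to the ribosome, had 2088 and 8035 CPM in OE and 3970 and 3320 CPM in NC. Its log2 difference from the NC mean in OE replicate 2 was 1.15, the highest of any factor in that library, and in OE replicate 1 it was -0.80. EEF1A2, a paralogue made mainly in muscle and nerve, had 322 and 1270 CPM in OE and 969 and 928 CPM in NC. EEF1B2, EEF1D and EEF1G, which form the exchange complex that reloads eEF1A with GTP, had log2 differences of -1.50, -1.61 and -1.22 in OE replicate 1 and of 0.35, 0.34 and 0.27 in OE replicate 2. These 3 were added after their values were seen.

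EEF2, the GTPase that moves the ribosome along by a codon, was below NC in both OE libraries, at 912 and 1945 CPM against 2318 and 1973 CPM in NC. The margin in OE replicate 2 was narrow, and the groups overlapped with RLE scaling. Its log2 fold change was -0.59 (SE 0.67, edgeR quasi-likelihood adjusted p = 0.817). EEF2KMT, a methyltransferase that modifies eEF2, was above NC in both, at 11.1 and 19.6 CPM against 10.04 and 10.85 CPM in NC. The kinase EEF2K, which switches eEF2 off, had 30.2 and 18.5 CPM in OE and 26.2 and 22.0 CPM in NC, with overlapping groups and a log2 fold change of 0.01.

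Release factors included the factor with the smallest p. GSPT2, one form of the GTPase eRF3 that acts in termination, had 7.80 and 6.15 CPM in OE and 13.96 and 13.89 CPM in NC, or 6.98 ± 1.17 against 13.9 ± 0.0446 CPM (SD, n = 2 each). Both OE libraries lay far below both NC libraries, with a log2 fold change of -1.0 (SE 0.35, edgeR quasi-likelihood adjusted p = 0.734). GSPT1, the main form of eRF3, was also lower in both, at 122 and 169 CPM in OE and 225 and 260 CPM in NC. Its log2 fold change was -0.74 (SE 0.39, edgeR quasi-likelihood adjusted p = 0.734). Neither overlapped between the groups when library totals were the only scaling, at -0.64 for GSPT2 and -0.45 for GSPT1.

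ETF1 (eRF1), which reads the stop codon, did not follow its partner. It had 126 and 292 CPM in OE and 170 and 176 CPM in NC, a log2 fold change of 0.27 (SE 0.51). ABCE1, which splits ribosomes after termination, had 66.3 and 281 CPM in OE and 149 and 169 CPM in NC. Both genes were below NC in OE replicate 1 and above it in OE replicate 2.

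The poly(A)-binding proteins differed from the other groups, with all 3 tested genes above both NC libraries in OE replicate 1. PABPC1, the main cytoplasmic form, had 1104 and 257 CPM in OE, against 407 and 406 CPM in NC. PABPC1L, a relative known from oocytes and early embryos, had 226 and 9.40 CPM in OE, against 10.7 and 10.6 CPM in NC. For both genes OE replicate 1 alone was high and OE replicate 2 was below NC. Estimated counts of PABPC1L were 2372.12 in OE replicate 1, a fractional value, against 208 in OE replicate 2 and 208 and 180 in NC. PABPC1L had a log2 fold change of 3.46 (SE 1.40, edgeR quasi-likelihood adjusted p = 0.734), which became 4.41 with OE replicate 1 as the lone OE library and -0.18 with OE replicate 2 as the lone one. PABPC4, a paralogue first found in activated T cells, was the one above NC in both OE libraries, at 97.0 and 72.8 CPM against 68.0 and 60.7 CPM in NC.

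Shares of the raw library total, which amount to scaling by library totals alone, were also taken by role. All 62 genes together held 1.93% and 2.70% of the counts in OE and 2.18% and 2.11% in NC, or 2.32% ± 0.544 against 2.14% ± 0.0461 (SD, n = 2 each). The difference of the means, OE minus NC, was 0.173 points on this scale and turned to -0.181 points when CPM was scaled by TMM, both within the spread between the OE libraries. Elongation factors held 0.535% and 1.20% in OE, against 0.798% and 0.702% in NC. EEF1A1 alone held 0.283% and 0.728% in OE, against 0.353% and 0.303% in NC. The poly(A)-binding proteins held 0.194% and 0.0308% in OE, against 0.0432% and 0.0436% in NC. The OE replicates lay on both sides of NC for each of these. The share of the start-codon and initiator tRNA group was 0.262% and 0.211% in OE and 0.210% and 0.203% in NC, above NC in both OE libraries, as was that of eIF3. With TMM scaling neither held, and the start-codon group summed to 1931 and 2325 CPM in OE, against 2358 and 2226 CPM in NC. With 2 libraries against 2 an exact permutation test cannot give a p below 0.333.

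**Figure D4:**
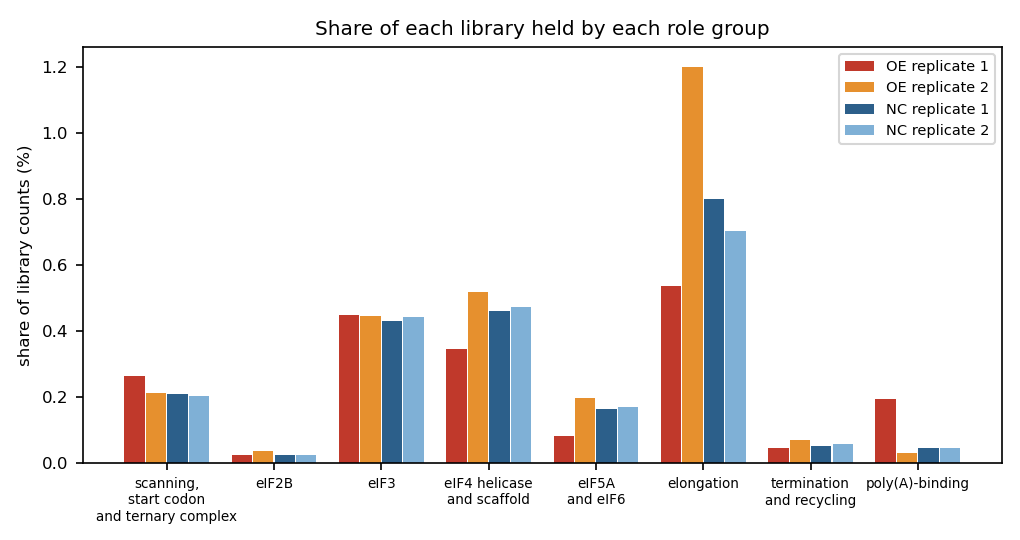
Bars give the percentage of all counts in a library that fell on each role group. Elongation factors range from 0.535% (OE replicate 1) to 1.20% (OE replicate 2) with NC between, poly(A)-binding proteins run the other way, and eIF3 lies between 0.430% and 0.448% in all 4 libraries on this scale of raw totals.

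Ratios between paralogues within a library also need no scaling, and 1 of them was nearly the same in both OE libraries and apart from NC. The log2 ratio of EEF1A1 to EEF1A2 counts was 2.70 and 2.66 in OE, against 2.03 and 1.84 in NC. Both OE values were higher, by 0.74 on average, with a pooled SD between replicates of 0.10. That pooled SD was the smallest among the pairs compared, and no background over other gene pairs is given. EEF1A1 and EEF1A2 had whole-number counts in all 4 libraries. For EIF1 over EIF1B the log2 ratio was 3.66 and 3.46 in OE and 3.38 and 3.25 in NC, and for EIF5A over EIF5A2 it was 4.86 and 6.09 in OE and 6.37 and 6.33 in NC.

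The other 5 ratios overlapped between the groups. EIF4A1 over EIF4A2 had log2 ratios of 1.44 and 3.62 in OE and 3.02 and 2.75 in NC, and PABPC1 over PABPC4 had 3.51 and 1.82 in OE and 2.58 and 2.74 in NC. GSPT1 over GSPT2 had 3.96 and 4.77 in OE and 4.01 and 4.22 in NC, so the paralogues of eRF3, both lower in OE, kept a ratio that overlapped between the groups. None of the 8 ratios was tested, as the smallest exact p of this design is 0.333.

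**Figure D5:**
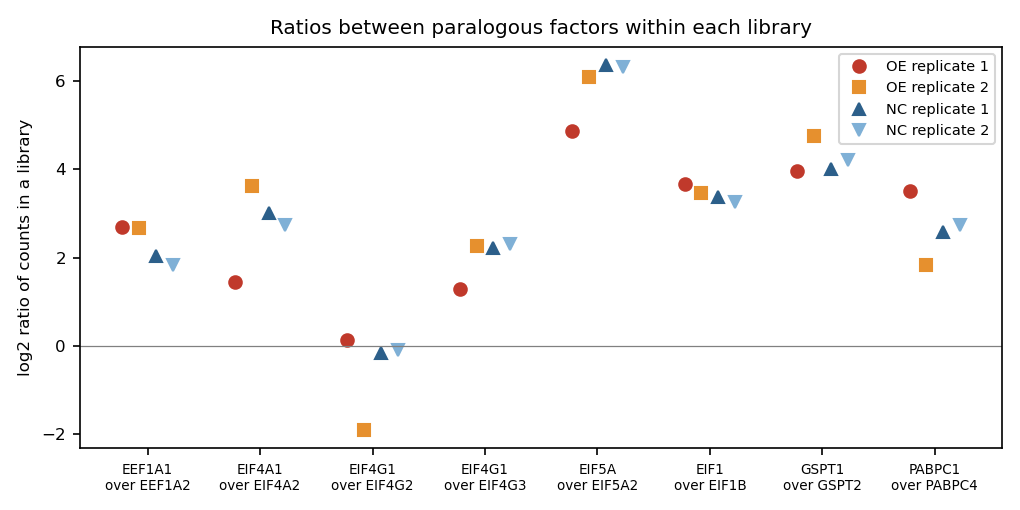
Points are log2 ratios of the counts of paralogous factors within a library, for the 4 libraries side by side. EEF1A1 over EEF1A2 is 2.70 and 2.66 in OE, above 2.03 and 1.84 in NC, and EIF4A1 over EIF4A2 has OE points on both sides of NC.

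The pyrimidine tract at the start of the message is a feature of sequence that many of these factors share and that did not enter their choice. RefSeq start sites (GRCh38.p14, a later build than the one named for the count tables) were used for 49 of the 62 genes. A tract was taken as a C at the start site followed by at least 4 further C or T bases, on the strand of the gene. It was found in 13 of the 49 genes, at 13 of their 65 start sites, and at 4.07% of 35116 start sites in the whole table. The following lines show 30 bases, 10 before the start site and 20 from it on, with the tract in capitals, for factors whose footprints are described above. EEF1B2 has a tract at 1 of its 2 listed starts, and the last pair of genes is shown as examples without one at the listed start. EEF1G is nonetheless on the list of TOP messages from the literature used below, so a listed start without a tract need not settle the matter.
EEF1A1 (chr6:73521013-73521042, minus strand): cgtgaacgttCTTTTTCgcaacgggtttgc
EEF2 (chr19:3985444-3985473, minus strand): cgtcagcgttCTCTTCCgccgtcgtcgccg
EEF1B2 (chr2:206159885-206159914, plus strand): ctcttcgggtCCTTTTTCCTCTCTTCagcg
EIF3D (chr22:36529147-36529176, minus strand): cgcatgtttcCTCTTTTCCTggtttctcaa
EIF3F (chr11:7987327-7987356, plus strand): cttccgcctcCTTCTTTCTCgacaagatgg
EIF3K (chr19:38619178-38619207, plus strand): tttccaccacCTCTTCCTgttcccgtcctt
EIF3M (chr11:32583821-32583850, plus strand): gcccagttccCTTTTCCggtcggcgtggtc
EIF4A2 (chr3:186783567-186783596, plus strand): gcgccgctgtCTTTTCagtcgggcgctgag
EIF4B (chr12:53006446-53006475, plus strand): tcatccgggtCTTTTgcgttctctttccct
EIF4A1 (chr17:7572815-7572844, plus strand): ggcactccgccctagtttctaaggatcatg
EEF1G (chr11:62573872-62573901, minus strand): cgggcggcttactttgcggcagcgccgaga

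Genes with the tract did not share a direction across the 2 OE libraries. In OE replicate 1, 11 of the 12 tested lay below both NC libraries and 1 above, while in OE replicate 2 4 lay below and 8 above. Of the 32 tested genes without it, 23 lay below and 5 above in OE replicate 1, and 9 and 23 in OE replicate 2. Of the 12 tested genes that have it, 1 lay above NC in both OE libraries (EIF2D), 4 below (EEF2, EIF3D, EIF4A2 and EIF4B) and 7 overlapped, or 8.33% above and 33.3% below, beside 19.9% and 20.4% of all genes. EIF4A2 and EIF4B overlapped with library totals as the only scaling. Of the 32 tested genes whose listed starts lack it, 2 lay above, 4 below and 26 overlapped. With the tract the median log2 differences from the NC mean were -0.84 (OE replicate 1) and 0.34 (OE replicate 2). Without it they were -0.53 and 0.29, and over all genes tested 0.02 and 0.00. EEF1A2, EEF1D, EEF2KMT, EIF2S2, EIF3A, EIF3E, EIF3G, EIF3H, EIF3L, PABPC1 and PABPC4 were not included in this split.

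The same was done with 12 factors known from the literature as TOP messages, EEF1A1, EEF1B2, EEF1D, EEF1G, EEF2, EIF3A, EIF3E, EIF3F, EIF3G, EIF3H, EIF4B and PABPC1. Of these, 0 lay above NC in both OE libraries, 2 below and 10 overlapped, or 0% above and 16.7% below, beside 19.9% and 20.4% of all genes. The 12 had a median log2 fold change of -0.25, against a median of -0.03 for the other 43 tested factors. In OE replicate 2 their log2 differences ran from -1.32 for EIF3A to 1.15 for EEF1A1, with a median of 0.22 beside 0.32 for the other factors. The list was therefore spread over both sides of NC in that library. In OE replicate 1 it lay mostly below, with 10 of the 12 below both NC libraries and 2 above. Of the other 43 factors 30 were below and 9 above there, and of all 12560 genes tested 5717 and 5867. The medians in OE replicate 1 were -0.911 for the list and -0.505 for the other factors.

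Enzymes that modify translation factors, such as those that build diphthamide on eEF2 or hypusine on eIF5A, were found under 18 of the symbols listed. Of these 18, 0 passed edgeR's quasi-likelihood test, 6 lay above NC in both OE libraries, 4 below and 8 overlapped, with a median log2 fold change of 0.28 beside 0.09 for all genes. These are 33.3% above and 22.2% below, beside 19.9% and 20.4% of all genes. The 3 with the smallest p belong to the diphthamide pathway, of whose 7 tested genes 3 lay above, 1 below (DPH6, log2 fold change -0.08) and 3 overlapped (DPH3, DPH5 and DNAJC24). DPH1 had 23.3 and 28.7 CPM in OE and 17.0 and 14.8 CPM in NC, DPH2 had 19.6 and 28.2 CPM in OE and 13.8 and 14.6 CPM in NC, and DPH7 had 31.9 and 13.2 CPM in OE and 9.22 and 9.91 CPM in NC. DPH1, DPH2 and DPH7 were above NC in both OE libraries, with log2 fold changes of 0.71, 0.75 and 1.23 (edgeR quasi-likelihood adjusted p = 0.734 for each).

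Among 11 accessory proteins of initiation, 0 passed the test, 1 lay above NC in both OE libraries and 5 below, or 9.09% and 45.5%, beside 19.9% and 20.4% of all genes. PDCD4, which holds the eIF4A helicase inactive, had 28.5 and 27.8 CPM in OE and 39.9 and 48.0 CPM in NC, a log2 fold change of -0.64 (SE 0.29, edgeR quasi-likelihood adjusted p = 0.734). PAIP2B, an inhibitor of poly(A)-binding protein, had 4.19 and 4.39 CPM in OE and 6.95 and 7.68 CPM in NC. CTIF, a scaffold of the nuclear cap-binding route, was above NC in both, at 24.9 and 6.56 CPM against 5.82 and 6.16 CPM in NC.

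Of the 6 kinases and phosphatase subunits that set the phosphorylation of eIF2, 0 passed, 0 lay above NC in both OE libraries, 2 lay below (33.3%, beside 20.4% of all genes) and 4 overlapped. The phosphatase subunit PPP1R15A had 239 and 57.6 CPM in OE, against 76.7 and 83.7 CPM in NC, while PPP1R15B had 74.8 and 75.2 CPM in OE and 88.7 and 90.4 CPM in NC. The ER stress kinase EIF2AK3 had 22.4 and 24.3 CPM in OE and 27.3 and 28.8 CPM in NC. PPP1R15B and EIF2AK3 were the pair below NC in both OE libraries, with log2 fold changes of -0.26 and -0.27.

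Ribosome rescue and quality control gave 12 tested genes, of which 0 passed, 0 lay above NC in both OE libraries and 2 below (16.7%, beside 20.4% of all genes). PELO, which recognises ribosomes stalled at the end of a message, had 17.8 and 36.2 CPM in OE and 41.0 and 40.2 CPM in NC. GTPBP2, a GTPase of stalled ribosomes, had 76.0 and 16.8 CPM in OE and 19.4 and 19.6 CPM in NC. ANKZF1, which frees stalled chains from the large subunit, had 63.2 and 17.4 CPM in OE and 18.3 and 23.0 CPM in NC. GTPBP2 and ANKZF1 were above NC in OE replicate 1 alone.

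Mitochondrial translation has its own factors, of which 10 were tested, 0 passed, 3 lay above NC in both OE libraries (30.0%, beside 19.9% of all genes) and 2 of the 10 below (beside 20.4%). The 3 above were the recycling factor MRRF and the release factors MTRF1 and MTRF1L. MRRF had 46.9 and 39.6 CPM in OE and 24.0 and 27.9 CPM in NC, a log2 fold change of 0.74 (SE 0.30, edgeR quasi-likelihood adjusted p = 0.734). MTRF1 had 10.4 and 7.60 CPM in OE and 4.79 and 5.75 CPM in NC, and MTRF1L had 19.99 and 19.94 CPM in OE and 13.3 and 15.1 CPM in NC. The lower genes were the elongation factors GFM1 and GFM2, with log2 fold changes of -0.96 and -0.72, named after their values were seen.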

How the data were processed

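For each library the authors deposited a table of estimated counts by Ensembl gene, per the file headers; between 13.8% and 14.7% of values held a fraction, and they were rounded for the count tests. Build hg18 and the tools RSEM, StringTie, HISAT2, Bowtie2 and fastp are named, without roles, per the submitters' processing notes. Versions, annotation, strand, multi-read and rRNA settings were not given in the sources used here. Overlapping and near-identical genes are therefore uncertain. Groups came from the sample titles. Of factor rows with one symbol the largest was kept.

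R 4.3.3, edgeR 4.0.16 and DESeq2 1.42.0 were used. The filter on low counts was filterByExpr with a count of 10, a total of 15 and a proportion of 0.7. Libraries were scaled by TMM (factors 1.36 and 0.907 for OE, 0.889 and 0.912 for NC) and compared by edgeR's quasi-likelihood test, with p-values adjusted by Benjamini-Hochberg over 12560 genes and a threshold of 0.05. The biological coefficient of variation was 0.423, with 2 residual and 3.09 prior degrees of freedom. Log2 differences of single libraries use edgeR's log2 CPM with a prior count of 2. Paralogue ratios add 0.5 to each count. Counts of replicates differed by a chi-square per degree of freedom of 344.5 in OE and 13.2 in NC, so no library was a repeat. Whether replicates are separate cultures beyond the submitters' statement is not given, so p-values measure the spread between these libraries. The steps were tested on simulated counts with a dispersion of 0.05, below the common dispersion of 0.179 in these data. That test cannot show how the steps perform at the spread between these OE libraries.

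By role, the genes named were the 2 with the highest mean CPM, the 2 with the smallest p, the highest and lowest log2 fold change, and fixed paralogue sets. Of wider lists the 3 with the smallest p were named. Members, lists and this rule were chosen with earlier results of these data known. The definition of the pyrimidine tract was set after the values were seen. Gene levels were not compared with one another, as message lengths were not used here. The alternatives were DESeq2, RLE scaling, library totals, no filter, at least 50 counts in 2 libraries, the replicate block and leaving out each library.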

Additional observations from a re-analysis of the deposited data

How the results depend on the processing

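No factor was called in the fits over all 4 libraries except PABPC1L by the DESeq2 Wald test (1 factor of 25 genes called). The replicate number as a block called 24 genes and 0 factors. EIF4G3 then had a log2 fold change of -0.36, and no other named factor changed sign. Same-numbered libraries deviated with a correlation of -0.097. Whether a number marks a shared experiment is not stated, and this correlation cannot decide it, as it rests on a single pair of libraries in each group. Leaving out each library in turn gave 3 to 7684 genes called and 0 to 41 factors. Factors above NC in every OE library numbered 5 to 39 and those below 8 to 40 in these fits. The 39 rest on OE replicate 2 alone, which lay above both NC libraries for 5370 of all 12560 genes tested. The 40 rest on OE replicate 1 alone, which lay below both for 5717 of all genes. With library totals as the only scaling 15 of the 55 factors lay above and 4 below, beside 3798 and 1474 of all 12560 genes tested. In that setting EIF1B, EIF2B2, EIF2S2, EIF3A, EIF4G2 and EIF6 turned to 0.16, 0.028, 0.38, 0.15, 0.23 and 0.13. With no filter 3 lay above, without EEF2KMT and EIF3J. EIF6 was 0.002 with RLE scaling and with DESeq2, and EIF2S2 was 0.022 with the stricter filter. The cause of these changes was not tested.

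Over the fits without 1 library, log2 fold changes that changed sign ran from -0.80 to 1.14 for EEF1A1, -1.56 to 0.42 for EEF1A2, -0.072 to 0.30 for EIF1, -0.41 to 0.12 for EIF1B, -0.55 to 0.82 for EIF2B1, -0.92 to 0.30 for EIF2B2, -1.64 to 0.36 for EIF2B3, -0.51 to 0.33 for EIF2S2, -1.33 to 0.27 for EIF3A, -0.61 to 0.69 for EIF3L, -1.91 to 0.33 for EIF4A1, -0.33 to 0.17 for EIF4G2, -1.63 to 0.90 for EIF4G3, -1.66 to 0.16 for EIF5A, -0.18 to 0.42 for EIF5A2, -1.43 to 0.69 for EIF6, -0.46 to 0.76 for ETF1, -0.66 to 1.44 for PABPC1 and -0.18 to 4.41 for PABPC1L. Apart from EIF1, whose ends came from leaving out an NC library, these ends came from leaving out OE replicate 1 or OE replicate 2. With 7742274 counts OE replicate 1 was the shallowest library, and a count of 0 bounds a level less tightly there.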
